A study of Mus musculus with 10 samples.

Results

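Telomere maintenance was examined through the mRNA levels of 10 genes in mouse embryonic stem cells (mESCs) that lack either the histone chaperone DAXX or the histone variant H3.3. The genes were taken as a fixed list of names, set when earlier results of these data were known. They were Tert and Dkc1 of telomerase, the shelterin genes Terf1, Terf2, Terf2ip, Tinf2, Acd, Pot1a and Pot1b, and the helicase gene Rtel1. All 10 were found among the 20325 genes of the deposited table, and all 10 were among the 13201 genes with enough reads to be tested. PolyA RNA-Seq had been done on 5 mESC lines with 2 biological replicates each. The Daxx-/- line and the same cells carrying FLAG-tagged WT DAXX (called here the DAXX WT line) were of strain 129/SvEv. The H3.3 KO line was labelled as a cross of strains 129 and C57BL/6J, and it was compared with its derivatives carrying FLAG-HA-tagged H3.3, either WT (the WT H3.3 line) or the mutant labelled L126A-L130A (the L126A-L130A line). The mutant was designed to bind DAXX without stable deposition into nucleosomes. Transgenes were delivered by lentivirus under an EF1 promoter and the cells were selected with puromycin and collected weeks after transduction, so a transgenic line differs from its KO line in these steps too. All lines were grown feeder-free in 2i medium with LIF. No line with both endogenous genes intact was used here.

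Telomeres are the repeated ends of chromosomes. Telomerase extends them with its reverse transcriptase TERT and an RNA template that dyskerin (Dkc1) helps to stabilise, and it is active in mESCs. Shelterin is the protein complex that covers the repeats: TRF1 and TRF2 (Terf1, Terf2) bind the double-stranded DNA, RAP1 (Terf2ip) sits on TRF2, TIN2 (Tinf2) joins the TRF proteins to TPP1 (Acd), and TPP1 carries POT1 on the single-stranded end. Mice have a pair of POT1 genes, Pot1a and Pot1b. RTEL1 is a helicase that unwinds telomeric loops and G-quadruplexes so that chromosome ends can be replicated. ATRX and DAXX deposit H3.3 at telomeres, and tumours that have lost either protein often maintain telomeres by recombination, a state called alternative lengthening of telomeres (ALT). RNA levels say nothing of telomere length, telomerase activity or the shelterin proteins themselves.

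The 250 bases upstream of a start site are shown for Tert, Pot1b and Rtel1, whose mean levels differed most among the 5 lines, and for Pot1a, the paralog of Pot1b. The sequences are those of RefSeq on GRCm38.p6, each written in the direction of transcription. They lie at chr13:73626661-73626910 on the plus strand for Tert, chr17:55712637-55712886 on the minus strand for Pot1b (the first of its 2 listed starts), chr2:181319474-181319723 on the plus strand for Rtel1 and chr6:25809219-25809468 on the minus strand for Pot1a. Capitals mark the GC box GGGCGG on either strand, where it reads CCGCCC on the other, and the telomeric repeat unit TTAGGG.
Tert: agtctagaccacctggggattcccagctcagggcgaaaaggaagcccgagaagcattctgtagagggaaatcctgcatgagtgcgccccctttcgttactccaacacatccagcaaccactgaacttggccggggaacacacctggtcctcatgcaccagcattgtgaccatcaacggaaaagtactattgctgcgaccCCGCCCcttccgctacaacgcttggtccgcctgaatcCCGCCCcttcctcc
Pot1b: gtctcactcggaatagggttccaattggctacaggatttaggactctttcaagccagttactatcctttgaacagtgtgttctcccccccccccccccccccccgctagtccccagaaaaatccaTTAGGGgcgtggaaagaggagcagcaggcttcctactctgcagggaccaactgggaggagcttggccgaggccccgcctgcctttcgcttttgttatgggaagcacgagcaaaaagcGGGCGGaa
Rtel1: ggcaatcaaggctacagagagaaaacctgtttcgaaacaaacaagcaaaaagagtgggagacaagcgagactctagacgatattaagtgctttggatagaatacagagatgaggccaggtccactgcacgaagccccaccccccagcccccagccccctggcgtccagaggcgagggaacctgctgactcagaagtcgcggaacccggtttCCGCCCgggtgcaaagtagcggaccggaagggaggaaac
Pot1a: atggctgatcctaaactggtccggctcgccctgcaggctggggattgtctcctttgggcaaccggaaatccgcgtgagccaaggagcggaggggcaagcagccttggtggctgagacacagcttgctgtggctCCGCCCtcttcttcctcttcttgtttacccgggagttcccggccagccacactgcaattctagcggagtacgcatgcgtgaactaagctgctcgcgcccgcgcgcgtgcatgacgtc
Of the 9 genes with a promoter in the RefSeq table (all but Terf1), these 4 held the GC box, which was present in 32.7% of 32851 promoters of the same length. Tert had 2 copies and the others 1 each. TTAGGG was found upstream of Pot1b alone, against 9.32% of all promoters. The E-box CACGTG, which reads the same on both strands, was in none of the 9 windows and in 6.02% of all promoters. GC content was 57.2% for Tert, 56.8% for Pot1b, 56.4% for Rtel1 and 61.6% for Pot1a, beside a median of 52.4% over all promoters.

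The libraries held 15463625 to 21396585 expected counts in total, and each of the 10 genes had between 198.6 and 7781.74 counts per library. Levels are given as CPM, the counts scaled to a common library total, after correction for library composition. Daxx mRNA was 72.9 to 82.5 CPM in Daxx-/- cells and 206 CPM in both DAXX WT libraries, but 59.3 to 101 CPM in the H3.3 lines, so a gene-level count did not show the loss of Daxx. Of the genes that encode H3.3, H3f3a was at 2.84 to 10.9 CPM in the H3.3 lines against 381 to 494 CPM in the Daxx lines. H3f3b was not low in the H3.3 lines (139 to 720 CPM, against 84.3 to 380 CPM), and whether these reads come from the deleted part is not known. The 6 mESC markers found of 7 listed were at 202 CPM or more in every library. The summed primitive endoderm markers (5 of 5 in the table, Sox7 under 1 CPM throughout) reached 16.5 CPM in Daxx-/- replicate 2 and 4.61 to 11.9 CPM in the other libraries. The summed fibroblast markers (5 of 5, with Col1a2, Col3a1 and Postn under 1 CPM throughout) were 27.5 and 40.9 CPM in Daxx-/- and at most 17.2 CPM elsewhere. The highest value of a single fibroblast marker was 36.0 CPM, so the sum in Daxx-/- replicate 2 came mostly from 1 gene. Of the trophoblast markers, 4 of 5 were in the table, and their sum was 7.49 to 24.0 CPM with Cdx2 and Elf5 under 1 CPM. The libraries of Daxx-/- were the least alike, with a chi-square per gene of 73.4 against 10.9 to 33.0 for the other lines.

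Per kilobase of the longest annotated transcript, Dkc1 was the most abundant of the 10 genes with a mean level of 125 CPM per kb, followed by Terf1 with 49.7, Rtel1 with 18.8, Pot1a with 16.4, Terf2 with 15.0, Tinf2 with 11.6, Acd with 8.50, Terf2ip with 7.32, Tert with 6.00 and Pot1b with 5.57 CPM per kb. TERT, the catalytic subunit, was thus the second lowest and its partner dyskerin the highest. With all annotated exons merged as the length, Pot1a moved from rank 4 to rank 7, while the first 3 and the last 3 genes kept their ranks. The longest annotated transcript had 3 exons for Tinf2 and 5 for Terf1. Whether it is the form expressed was not tested for any gene, so levels per kb are approximate. Between the lines, the spread of the means was widest for Tert (1.25 on the log2 scale), Pot1b (1.00) and Rtel1 (0.90), and narrowest for Terf2ip (0.30) and Terf1 (0.33).

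**Figure D1:**
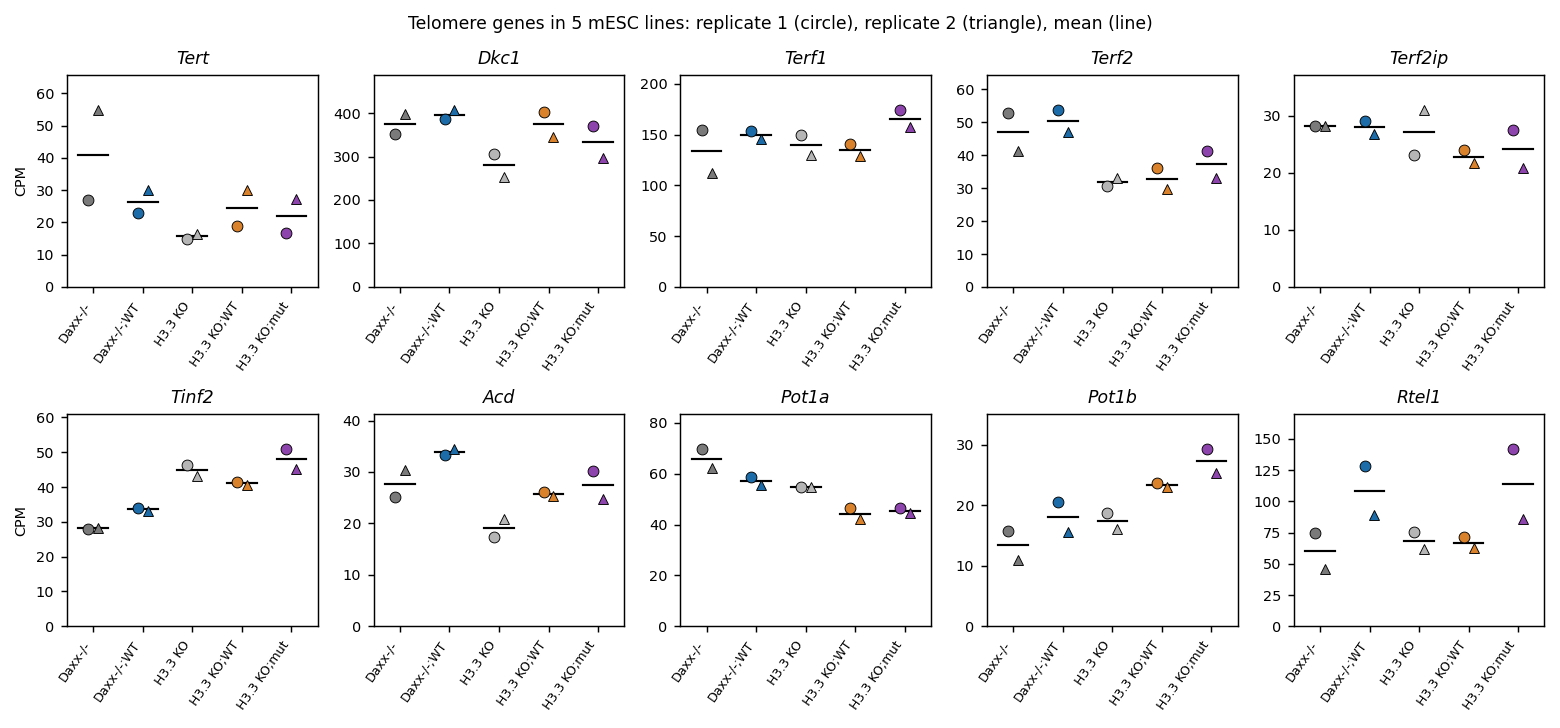
Normalised level (CPM, axis from 0) of each of the 10 genes in the 2 libraries of each line (circle, replicate 1, triangle, replicate 2, line, mean of both). The DAXX WT line is marked Daxx-/-;WT, the WT H3.3 line H3.3 KO;WT and the L126A-L130A line H3.3 KO;mut. Tert ran from 14.9 to 54.9 CPM, with the highest value in Daxx-/- replicate 2.

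None of the 10 genes passed an adjusted p under 0.05 in edgeR's quasi-likelihood test when a line with a transgene was set against its KO line or the 2 H3.3 transgenes against each other. This held for DAXX WT against Daxx-/- (1.41% of all genes called), WT H3.3 against H3.3 KO (0.25% called), L126A-L130A against H3.3 KO (0.962% called) and L126A-L130A against WT H3.3 (0.53% called). DESeq2 and limma called 0 of the 10 genes in the same 4 comparisons. When a replicate block was added to the edgeR fit, Rtel1 was called with DAXX and with L126A-L130A against H3.3 KO. At an unadjusted p under 0.05, the DAXX comparison had 1 gene (Rtel1, higher, 21.8% of all genes), WT H3.3 had 3 (Dkc1 and Acd higher and Pot1a lower, 13.3% of all genes), L126A-L130A against H3.3 KO had 3 (Acd, Pot1b and Rtel1 higher, 16.9%), and the mutant against WT H3.3 had 1 (Rtel1, higher, 12.3%). The median log2 fold change of the 10 genes was 0.13 in the DAXX comparison, 0.01 for WT H3.3 and 0.25 for L126A-L130A, beside -0.02, 0.02 and 0.03 over all genes. A change of 2-fold or more was outside the 95% interval for 8, 9 and 7 of the 10 genes in these 3 comparisons. The exceptions were Tert and Rtel1 for DAXX, Tert for WT H3.3, and Tert, Pot1b and Rtel1 for L126A-L130A. The share of all genes with intervals within 2-fold was not counted. The WT H3.3 and L126A-L130A comparisons share the H3.3 KO libraries, so their values are not independent of each other.

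**Figure D2:**
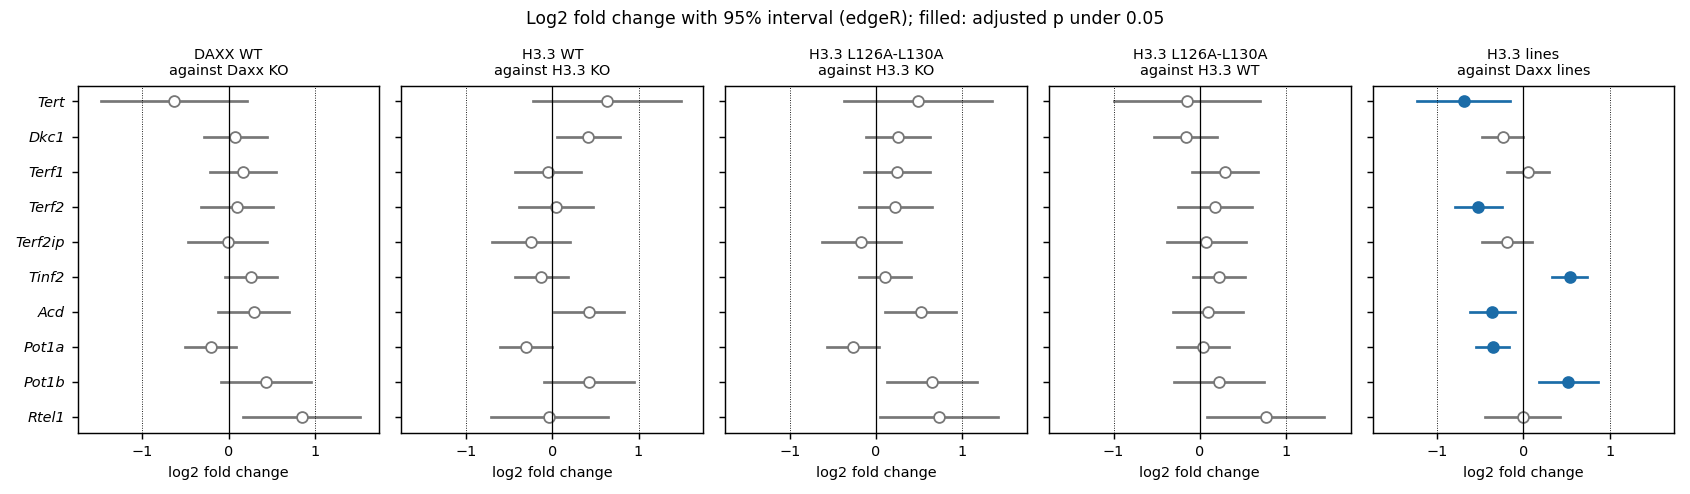
Log2 fold change (x axis) of each gene in 5 comparisons, with 95% intervals of 2.26 SE on either side (SE from edgeR's F). Dotted lines mark 2-fold and filled points an adjusted p under 0.05. Filled points appear only where the H3.3 lines are set against the Daxx lines, for 6 of the 10 genes.

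Tert lies on chromosome 13 (73626911 to 73649843, plus strand, GRCm38) with 16 exons in its longest transcript. Its level was 27.0 and 54.9 CPM in Daxx-/-, 22.8 and 30.1 CPM in the DAXX WT line, 14.9 and 16.5 CPM in H3.3 KO, 18.8 and 30.0 CPM in the WT H3.3 line and 16.6 and 27.3 CPM in the L126A-L130A line. Both H3.3 KO libraries were below every other library, but narrowly (16.51 against 16.59 CPM in L126A-L130A replicate 1). By library size alone, H3.3 KO replicate 2 (17.2 CPM) was above L126A-L130A replicate 1 (15.9 CPM). The rest of the lines overlapped their neighbours in the order of means. With DAXX, the mean of Tert went from 41.0 ± 19.7 to 26.5 ± 5.12 CPM (SD, n = 2), a log2 fold change of -0.63 ± 0.37 (SE, adjusted p = 0.349, edgeR). With WT H3.3 it went from 15.7 ± 1.15 to 24.4 ± 7.90 CPM (log2 0.64 ± 0.38, adjusted p = 0.526, edgeR), and with L126A-L130A to 22.0 ± 7.61 CPM (log2 0.49 ± 0.38, adjusted p = 0.568). The DAXX and WT H3.3 effects thus had opposite signs, with a difference between them of -1.27 ± 0.53 on the log2 scale (SE, adjusted p = 0.340, edgeR interaction). Tert was the 1 gene of the 10 with an unadjusted p under 0.05 in that interaction, against 13.9% of all genes, and 0 of the 10 genes passed after adjustment (0.0455% of all genes called). The difference between the DAXX and L126A-L130A effects was -1.12 ± 0.53 (adjusted p = 0.474, edgeR), where 0 of the 10 genes passed (0.0227% of all genes called) and none had an unadjusted p under 0.05, against 11.2% of all genes. The DAXX value rested on Daxx-/- replicate 2: without that library it was -0.04, and leaving out single libraries gave -1.05 to -0.04. The other Tert values moved with single libraries as well, from 0.26 to 0.93 for WT H3.3, from 0.08 to 0.80 for L126A-L130A, from -1.69 to -0.67 for the difference of the DAXX and WT H3.3 effects and from -1.54 to -0.52 for that of the DAXX and L126A-L130A effects. The same library had the highest primitive endoderm and fibroblast marker sums, the latter mostly from 1 gene. The part of these markers in the Tert level was not tested.

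Dkc1, on the X chromosome (75095854 to 75109777, plus strand), encodes the pseudouridine synthase of telomerase and of the H/ACA ribonucleoproteins. Its level was 353 and 398 CPM in Daxx-/-, 385 and 407 CPM in the DAXX WT line, 306 and 253 CPM in H3.3 KO, 403 and 344 CPM in the WT H3.3 line and 370 and 297 CPM in the L126A-L130A line. H3.3 KO had the lowest mean, and its higher library overlapped the lower library of the L126A-L130A line. With WT H3.3 the log2 fold change was 0.42 ± 0.16 (adjusted p = 0.315, edgeR), and with DAXX it was 0.08 ± 0.16 (adjusted p = 0.804).

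Among the double-strand binders, Terf1 (chromosome 1, 15805646 to 15844052, plus strand) varied from 112 to 174 CPM over the 10 libraries, and the L126A-L130A line was highest with 174 and 157 CPM. Terf2 (chromosome 8, 107069400 to 107096547, minus strand) was 52.8 and 41.4 CPM in Daxx-/- and 53.7 and 47.1 CPM in the DAXX WT line. In the H3.3 lines it was 30.7 and 33.0 CPM in H3.3 KO, 36.1 and 29.6 CPM in the WT H3.3 line and 41.4 and 33.0 CPM in the L126A-L130A line. Terf2 was thus lower in the H3.3 lines, with 1 library of the L126A-L130A line reaching the lowest of the Daxx libraries. Terf2ip (chromosome 8, 112011398 to 112020528, plus strand), the gene of the TRF2 partner RAP1, stayed between 20.8 and 31.0 CPM, and all lines overlapped their neighbours. For Terf1, Terf2 and Terf2ip, the log2 fold changes with any of the 3 transgenes lay between -0.25 and 0.25, and all their 95% intervals were within 2-fold.

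Tinf2 encodes the hub of shelterin and lies on chromosome 14 (55674689 to 55681820, minus strand). It was 28.0 and 28.2 CPM in Daxx-/- and 34.1 and 33.2 CPM in the DAXX WT line, and 46.4 and 43.3 CPM in H3.3 KO, 41.6 and 40.6 CPM in the WT H3.3 line and 50.9 and 45.3 CPM in the L126A-L130A line. All 6 libraries of the H3.3 lines were above all 4 of the Daxx lines, and among the H3.3 lines the ranges of H3.3 KO and L126A-L130A overlapped. Acd (chromosome 8, 105695860 to 105701102, minus strand), the gene of TPP1, had its lowest values in H3.3 KO with 17.4 and 20.9 CPM. It was 25.1 and 30.4 CPM in Daxx-/-, 33.4 and 34.4 CPM in the DAXX WT line, 26.1 and 25.4 CPM in the WT H3.3 line and 30.2 and 24.8 CPM in the L126A-L130A line. In both rescued H3.3 lines, Acd was above both H3.3 KO libraries, with log2 0.43 ± 0.18 for WT H3.3 (adjusted p = 0.355, edgeR) and 0.52 ± 0.18 for L126A-L130A (adjusted p = 0.198). Genes with such an order over all those tested were not counted. The exons of both genes overlap a gene on the opposite strand in GENCODE M21. Tinf2 shares 1540 bases with Gmpr2 (31.2% of its merged exons) and Acd shares 1208 bases with Carmil2 (33.3%, the row Rltpr of the table), and since the library kit named does not mark strand, reads from the shared bases cannot be told apart. Neither partner was called between the H3.3 and the Daxx lines (Gmpr2 log2 0.23, adjusted p = 0.274, and Rltpr log2 0.39, adjusted p = 0.220, edgeR).

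Pot1a and Pot1b, whose proteins cap the single-stranded end, differed in opposite directions between the mean of the H3.3 lines and that of the Daxx lines. Pot1a (chromosome 6, 25743737 to 25809246, minus strand) was 69.7 and 62.4 CPM in Daxx-/-, 58.9 and 55.5 CPM in the DAXX WT line, 54.9 and 54.7 CPM in H3.3 KO, 46.6 and 42.1 CPM in the WT H3.3 line and 46.4 and 44.6 CPM in the L126A-L130A line. All 4 libraries of the Daxx lines were above all 6 of the H3.3 lines, and only the 2 rescued H3.3 lines overlapped. The gap between the sets was narrow (55.5 against 54.9 CPM) and depended on the scaling. By library size alone, both H3.3 KO libraries (56.7 and 56.9 CPM) were above both DAXX WT libraries (55.6 and 56.0 CPM). Pot1b (chromosome 17, 55651951 to 55712628, minus strand) was 15.7 and 11.0 CPM in Daxx-/-, 20.6 and 15.7 CPM in the DAXX WT line, 18.7 and 16.1 CPM in H3.3 KO, 23.8 and 23.1 CPM in the WT H3.3 line and 29.3 and 25.4 CPM in the L126A-L130A line. The sets overlapped for Pot1b, with both H3.3 KO libraries between the DAXX WT libraries. Daxx-/- held the lowest mean of Pot1b and the highest of Pot1a, and the highest mean of Pot1b was in the L126A-L130A line. With each of the 3 transgenes against its KO line, the estimate for Pot1a was below 0 (log2 -0.21, -0.31 and -0.27 for DAXX, WT H3.3 and L126A-L130A) and that for Pot1b above 0 (0.44, 0.43 and 0.65), but none of these passed (lowest adjusted p 0.344 for Pot1a and 0.199 for Pot1b, edgeR). The H3.3 comparisons share their control libraries. As paralogs, the genes may share reads that the counting divides between them, so a part of either level is uncertain.

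Rtel1, on chromosome 2 (181319739 to 181356616, plus strand) with 33 exons, was 74.9 and 45.9 CPM in Daxx-/-, 128 and 89.3 CPM in the DAXX WT line, 75.1 and 61.9 CPM in H3.3 KO, 71.4 and 62.5 CPM in the WT H3.3 line and 142 and 85.8 CPM in the L126A-L130A line. The DAXX WT and L126A-L130A libraries were all above the 6 libraries of the other lines, and how many of all genes show this was not counted. DAXX WT was 1.80-fold above Daxx-/- (log2 0.85 ± 0.30, adjusted p = 0.157, edgeR). L126A-L130A was 1.66-fold above H3.3 KO (log2 0.73 ± 0.30, adjusted p = 0.262) and 1.70-fold above the WT H3.3 line (log2 0.76 ± 0.30, adjusted p = 0.347). WT H3.3 itself was at log2 -0.03 from H3.3 KO, with a 95% interval from -0.71 to 0.65, and leaving out single libraries moved this from -0.17 to 0.11. The difference between the DAXX and WT H3.3 effects on Rtel1 was 0.88 ± 0.42 on the log2 scale (adjusted p = 0.393, edgeR interaction). Leaving out single libraries gave 0.33 to 1.05 for L126A-L130A against H3.3 KO, 0.36 to 1.08 against the WT H3.3 line, 0.57 to 1.28 for the difference of effects and 0.53 to 1.24 for the DAXX comparison, which passed, of these, without Daxx-/- replicate 1 alone (log2 1.24, adjusted p = 0.0434).

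The libraries of a line differed in the same direction for several of these genes. Replicate 2 was above replicate 1 for Tert in 5 of 5 lines, with a ratio of 1.11 to 2.03. Replicate 1 was the higher library in 5 of 5 lines for Rtel1 (ratio of replicate 2 to replicate 1 of 0.605 to 0.875), Pot1b (0.699 to 0.970), Terf1 (0.724 to 0.950) and Pot1a (0.895 to 0.996). For Tert in particular, the distance between the Daxx-/- libraries (2.03-fold) was larger than the 1.55-fold difference between WT H3.3 and H3.3 KO. Over all tested genes, the replicate differences correlated above 0.1 in 7 of 10 pairs of lines (-0.04 to 0.57), so such shifts were not limited to these genes. Every pair at or below 0.1 included H3.3 KO. The share of all genes with 5 of 5 lines in the same direction was not counted. Whether libraries with the same number were prepared together is not stated in the labels.

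**Figure D3:**
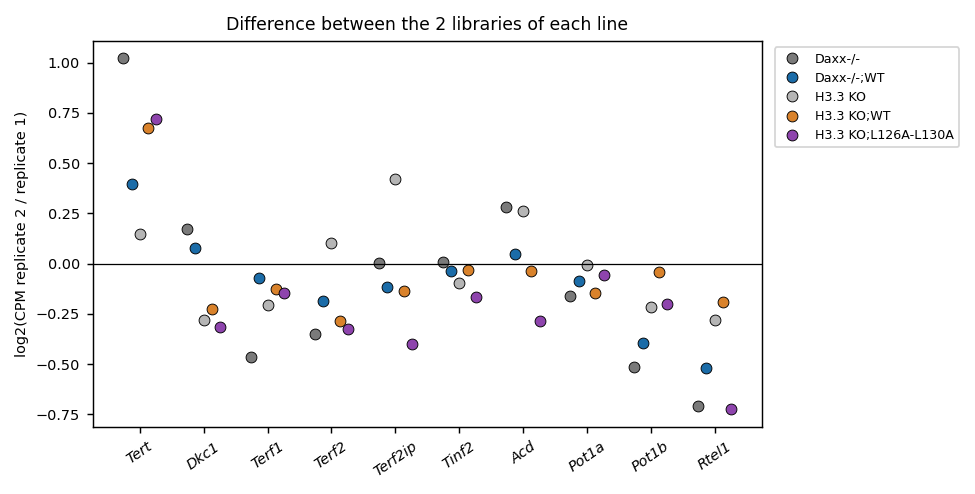
Log2 ratio of replicate 2 to replicate 1 (y axis) for each gene (x axis), 1 point per line. All 5 points of Tert are above 0 and all 5 points of Terf1, Pot1a, Pot1b and Rtel1 below it. The widest gap is that of Tert in Daxx-/-.

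With the mean of the 3 H3.3 lines set against the mean of the 2 Daxx lines, a contrast over all 10 libraries with smaller errors than those above, 6 of the 10 genes passed at an adjusted p under 0.05, while 39.9% of all genes did. Terf2 (log2 -0.52 ± 0.12, adjusted p = 0.00821), Pot1a (-0.36 ± 0.084, adjusted p = 0.00947), Acd (-0.36 ± 0.12, adjusted p = 0.0338) and Tert (-0.69 ± 0.24, adjusted p = 0.0451) were lower in the H3.3 lines in edgeR's test, with 20.6% of all genes called lower. Tinf2 (0.54 ± 0.088, adjusted p = 0.00175) and Pot1b (0.52 ± 0.15, adjusted p = 0.0232) were higher, with 19.3% of all genes called higher. With a 2-fold minimum added, 0 of the 10 genes passed in edgeR, against 12.5% of all genes. At an unadjusted p under 0.05 and no fold minimum, 7 of the 10 genes passed, against 49.5% of all genes. Without the fold minimum DESeq2 called 6 of the genes and limma 5. Dkc1 had log2 -0.24 (adjusted p = 0.0968), and Terf1 (adjusted p = 0.739), Terf2ip (0.265) and Rtel1 (0.973) were further from the threshold. The strain, the deleted gene and the origin of the line all differ between these sets, and their parts cannot be told apart. Each set comes from a single KO line, so the errors cover the spread between libraries and not that between lines of separate origin.

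Which of the 6 calls held depended on single libraries. Terf2, Tinf2 and Pot1a passed with any of the 10 libraries left out. The Tert call was lost without Daxx-/- replicate 2 (adjusted p = 0.170), DAXX WT replicate 1 (0.0632) or 2 (0.140), H3.3 KO replicate 1 (0.0995) or 2 (0.0826), WT H3.3 replicate 1 (0.108) or L126A-L130A replicate 1 (0.0872), all by edgeR. The Acd call was lost without Daxx-/- replicate 2 (adjusted p = 0.0831), DAXX WT replicate 1 (0.0795) or 2 (0.0928), H3.3 KO replicate 1 (0.0851), WT H3.3 replicate 1 (0.0779) or 2 (0.0852) or L126A-L130A replicate 2 (0.0750). That of Pot1b was lost without Daxx-/- replicate 2 (adjusted p = 0.0514), DAXX WT replicate 2 (0.0904), H3.3 KO replicate 1 (0.0573) or WT H3.3 replicate 1 (0.0581) or 2 (0.0516). The count of called genes fell to 3 without Daxx-/- replicate 2, DAXX WT replicate 2, H3.3 KO replicate 1 or WT H3.3 replicate 1. The summed fibroblast markers, with 3 of 5 under 1 CPM throughout, were also higher in the Daxx lines (12.4 to 40.9 CPM) than in the H3.3 lines (4.25 to 11.1 CPM). The summed mESC markers were lower in the Daxx lines (3808 to 4375 against 5003 to 6067 CPM). The summed trophoblast markers were 13.3 to 24.0 CPM in the Daxx lines, 7.49 to 8.69 CPM in H3.3 KO and WT H3.3 and 14.3 to 18.2 CPM in L126A-L130A. The part of these markers in the differences between the sets was not tested.

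Other genes of telomere maintenance were followed in lists of the telomerase holoenzyme, the CST complex with polymerase alpha-primase, telomere replication, regulators that act with shelterin, recombination and ALT-linked factors, meiotic telomere attachment, and two-cell-state genes. Of their 51 genes besides the 10 above, 50 were tested. With DAXX, 2 of them rose and 0 fell (4.0% of the list, against 1.41% of all genes). Both belong to recombination and ALT, but 1 of them is the gene supplied as the transgene. At an unadjusted p under 0.05 in edgeR's test there were 11 of the 50 genes (22.0%), against 21.8% of all genes. Daxx itself, which includes the transgene, rose by log2 1.41 ± 0.18 (adjusted p = 0.0212, edgeR). Mus81, the catalytic subunit of a structure-specific endonuclease, went from 6.71 and 6.99 CPM in Daxx-/- to 19.9 and 18.5 CPM in the DAXX WT line, while the H3.3 lines were between 9.00 and 14.1 CPM. Its rise was log2 1.49 ± 0.21 (adjusted p = 0.0240, edgeR), and its partner Eme1 had log2 0.90 ± 0.23 without passing (adjusted p = 0.0800). Both calls were lost without Daxx-/- replicate 2, either DAXX WT library or either WT H3.3 library (0 genes called each), and 10 genes were called without Daxx-/- replicate 1. They were also lost when the 4 Daxx libraries were fitted alone (0 genes), and DESeq2 called 7 genes. The median of the 50 genes was log2 0.09, beside -0.02 over all genes.

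With WT H3.3, L126A-L130A and L126A-L130A against WT H3.3, edgeR called 0 of the 50 genes in each comparison, where 0.25%, 0.962% and 0.53% of all genes were called. At an unadjusted p under 0.05 there were 4, 14 and 7 of the 50 genes (8.0%, 28.0% and 14.0%), against 13.3%, 16.9% and 12.3% of all genes. DESeq2 called 1, 4 and 0 genes there, and limma 0, 1 and 0. Medians were log2 -0.01, 0.05 and 0.04, beside 0.02, 0.03 and 0.0025 over all genes.

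Between the H3.3 and Daxx lines, 20 of the 50 genes passed (40.0%, beside 39.9% of all genes). Of these, 5 were higher and 15 lower in the H3.3 lines, where 19.3% of all genes were called higher and 20.6% lower. The median of the 50 genes was log2 -0.08, beside -0.01 over all genes. In the telomerase list, Nop10 of the H/ACA core (log2 -0.48, adjusted p = 0.00668) and the assembly ATPases Ruvbl1 (-0.66, adjusted p = 0.0164) and Ruvbl2 (-0.35, adjusted p = 0.0252) were lower in edgeR's test, as Tert was, and no gene of that list was called higher. Of the genes of CST and polymerase alpha-primase, which fill in the C-rich strand, Prim1 was higher (0.48, adjusted p = 0.00310) and Pola2 (-0.46, adjusted p = 0.00460), Prim2 (-0.35, adjusted p = 0.0158) and Obfc1, the older symbol of Stn1 (-0.37, adjusted p = 0.0171), were lower. Among replication and end-processing genes, the helicases Blm (-0.55, adjusted p = 0.00181) and Wrn (-0.43, adjusted p = 0.0243) and the nuclease Dna2 (-0.40, adjusted p = 0.0346) were lower. Dclre1b, the gene of the TRF2-bound nuclease Apollo, was higher (0.58, adjusted p = 0.00680). Of the regulators, Smg5 (-0.79, adjusted p = 7.00e-04), Smg6 (-0.65, adjusted p = 6.84e-04) and the tankyrase genes Tnks (-0.70, adjusted p = 0.00149) and Tnks2 (-0.38, adjusted p = 0.0179) were lower, and Pinx1, a telomerase inhibitor, was higher (0.86, adjusted p = 0.0170). Of the recombination and ALT list, Mre11a (0.85, adjusted p = 4.49e-04) and Atrx (0.48, adjusted p = 0.0172) were higher. Slx4 (-0.63, adjusted p = 8.32e-04) and Daxx (-0.89, adjusted p = 5.34e-04), the latter with the transgene counted, were lower. None of the 20 reached 2-fold.

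**Figure D4:**
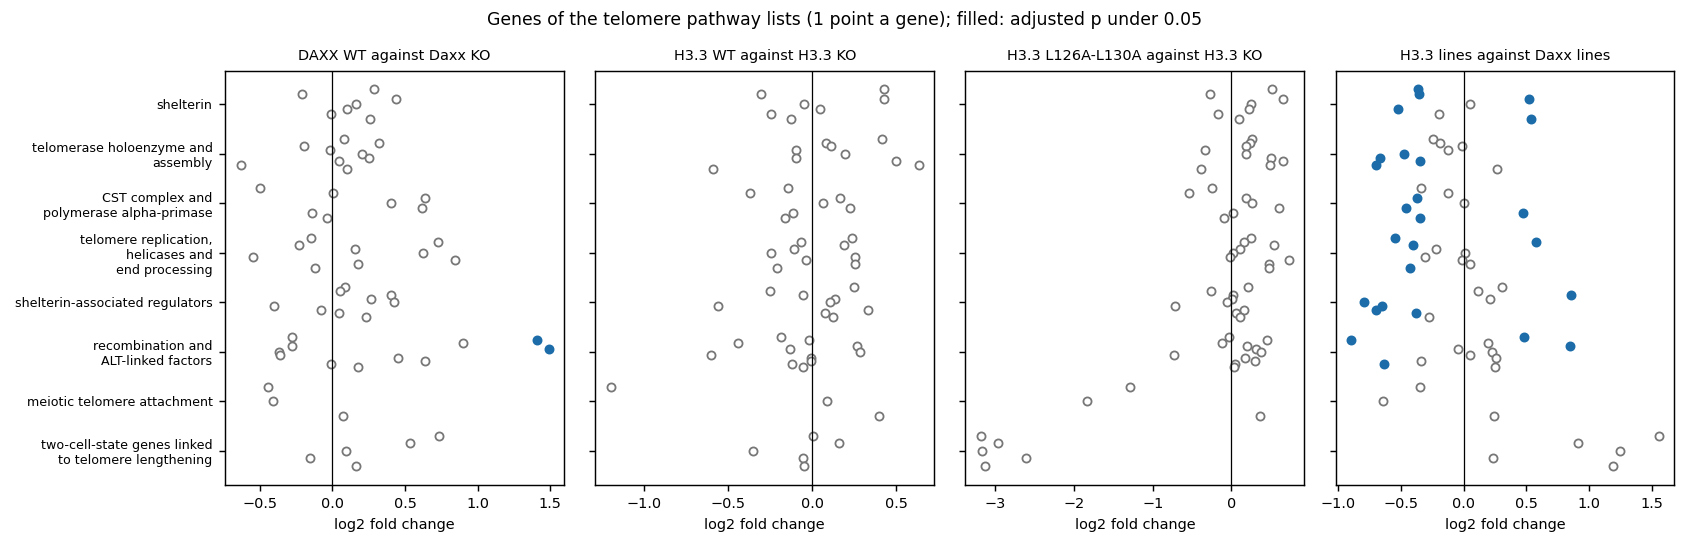
Log2 fold change (x axis) of each gene of the telomere lists (rows, 1 point a gene, the 10 genes above included) in 4 comparisons, with filled points at an adjusted p under 0.05 in edgeR and an x axis that differs between panels. Daxx and Mus81 are the 2 filled points with DAXX, and the filled points of the H3.3 lines against the Daxx lines fall on both sides of 0.

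Genes whose pattern over the 10 libraries was nearest to that of Tert were found by the root mean square (rms) difference of their centred log2(CPM + 1) values. They were Ube2t (0.152), Notch3 (0.159), Igsf9b (0.165), Mapk8ip3 (0.168) and Slc25a42 (0.169), where Tert itself had an rms of 0.517 about its own mean and the median gene differed from it by 0.611. For Pot1b (rms 0.378 about its mean, median gene 0.502) they were Dad1 (0.116), Tpx2 (0.118), R3hcc1 (0.120), 1110008L16Rik (0.121) and Narfl (0.122). None of the other 9 genes of the set was among the nearest 5 of either. The libraries share their depth and replicate differences, so likeness over 10 of them is a description only.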

How the data were processed

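PolyA RNA-Seq of 5 mESC lines, 2 libraries each, was grouped by the labels. Per the submitters' processing notes the reads were mapped with Bowtie to mm9 and quantified with RSEM (versions not given in the sources used here). The authors deposited unnormalized expected counts under the name TPM; 61.4% to 67.6% of them were whole. They were rounded and fitted in edgeR 4.0.16 (R 4.3.3), with all 10 libraries, median-of-ratios factors (0.936 to 1.04), genes of at least 1 CPM in 2 libraries, an abundance trend, quasi-likelihood F tests and Benjamini-Hochberg adjustment over 13201 genes. A call is an adjusted p under 0.05; the SE is the log2 fold change over the square root of F. Counts that are not whole include reads divided between genes. Depth limits the precision of low genes, and p-values cover the spread between 2 libraries a line.

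Positions were taken by symbol from GENCODE M21 (GRCm38), since no mm9 annotation was used here, and promoters from RefSeq; Python 3.11.15 (pandas 2.3.3, matplotlib 3.10.9) did the rest. In each telomere list, at most 4 called genes a comparison were named, by smallest adjusted p; Eme1 and Tnks2 were named after their values were seen. Terc, Speedya, Zscan4a, Tcstv1 and Tcstv3 are not analysed here. The 10 genes, lists and tests were chosen with earlier results of these data known. Alternatives were TMM or no factors, other filters, DESeq2 1.42.0, limma 3.58.1 on log2(CPM + 1) and log2(CPM + 0.1), no trend, a replicate block, each comparison alone, a 2-fold minimum and each library left out. The fits were tested on simulated data.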

Additional observations from a re-analysis of the deposited data

How the results depend on the processing

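Among the 10 telomere genes, the calls between the H3.3 and Daxx lines ranged from 3 to 6 with single libraries left out and fell to 0 with a 2-fold minimum. With DAXX, leaving out single libraries gave 0 to 1 called gene. Tert between the line sets also missed the threshold with library size alone (adjusted p = 0.0866), a mean of at least 5 CPM (0.0538), limma with either pseudocount (0.0545 and 0.0539) and no abundance trend (0.0655), and Acd with library size alone (0.0683) and without the filter (0.0516). Direction reversed with single libraries left out for Tert in L126A-L130A against WT H3.3 (-0.56 to 0.23) and Rtel1 in WT H3.3 against H3.3 KO (-0.17 to 0.11); the cause was not tested. For the other telomere genes, the 2 called with DAXX became 7 with DESeq2, 0 with each comparison alone and 0 to 10 with single libraries left out. The 0 called with WT H3.3 became 1 with DESeq2 and 2 alone, and the 0 with L126A-L130A became 4 with DESeq2, 1 each with TMM, library size alone, no filter, a mean of 5 CPM and both limma settings, and 0 to 1 with single libraries left out. The 20 between the line sets became 0 with a 2-fold minimum. The difference of the DAXX and WT H3.3 effects went from 0 to 3 with DESeq2 and 0 to 2 with single libraries left out, and that of DAXX and L126A-L130A from 0 to 1 with DESeq2.

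The labels of all lines share replicate numbers, without saying that a number marks a shared batch. The replicate differences of the lines correlated above 0.1 in 7 of 10 pairs of lines (-0.04 to 0.57), so many but not all lines deviated together, and the numbers were not taken as pairs. Every pair at or below 0.1 included H3.3 KO. The correlation was 0.57 for Daxx-/- with the DAXX WT line and 0.07 for H3.3 KO with the L126A-L130A line. With a replicate block, Rtel1 was called with DAXX (log2 0.86, adjusted p = 0.0156, edgeR) and with L126A-L130A against H3.3 KO (0.70, adjusted p = 0.0376), 1 of the 10 genes each. Without the block, the adjusted p of Rtel1 in edgeR was 0.157 and 0.262, so these results depended on how the replicate numbers were treated. The block gave 8 of the other telomere genes with DAXX, 4 with L126A-L130A and 3 for the difference of the DAXX and WT H3.3 effects. With 2 libraries a line, the wide intervals of Tert, Pot1b and Rtel1 limit what could be detected.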

Other observations

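Genes that lengthen or tether telomeres outside the somatic machinery were also present. The Zscan4 genes are markers of the two-cell-like state, which is linked to telomere lengthening. Zscan4f was 53.7 and 74.1 CPM in H3.3 KO, 50.2 and 73.2 CPM in the WT H3.3 line and 0.253 and 14.0 CPM in the L126A-L130A line, beside 20.0 and 5.32 CPM in Daxx-/- and 25.8 and 2.45 CPM in the DAXX WT line. Its log2 fold change in L126A-L130A against H3.3 KO was -3.13 ± 1.27 (adjusted p = 0.257, edgeR). Of the 5 Zscan4 genes in the table, 0 were called in that comparison by edgeR and 3 had an unadjusted p under 0.05 (0.962% and 16.9% of all genes), with a median log2 fold change of -3.13. These genes are near-identical copies, so their counts are uncertain and not independent of each other.

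Of the meiotic genes that attach telomeres to the nuclear envelope, Sun1 was at 170 to 267 CPM in every library. The Terb2 row 4933406J08Rik was 4.02 and 4.67 CPM in H3.3 KO, 3.24 and 5.98 CPM in the WT H3.3 line and 0.404 and 1.97 CPM in the L126A-L130A line (log2 -1.84 ± 0.63 against H3.3 KO, adjusted p = 0.190, edgeR). The Terb1 row Ccdc79 was under 1 CPM in all 10 libraries and was not tested.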
